A study of Mus musculus with 13 samples.

Results

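The histone cluster genes encode the canonical histones that package newly copied DNA. They were taken from the deposited table as every gene whose symbol starts with Hist1h, Hist2h, Hist3h or Hist4h, which gave 69 of 24495 genes. By class they were 6 genes of the linker histone H1, 19 of H2A, 19 of H2B, 12 of H3 and 13 of H4. By the locus named in the symbol, 55 were Hist1 genes, 10 Hist2, 3 Hist3 and 1 Hist4. In the GENCODE vM21 annotation Hist1h2al starts at base 51202727 of chromosome 13. The other Hist1 genes lie between bases 21715763 and 23934851.

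RNA was sequenced from mouse embryonic fibroblasts (MEFs) of strain background V6.5 129XBI/6, taken at embryonic day 12.5. All groups were Tet2-/- and carried OKSM-rtTA, the reprogramming factors Pou5f1, Klf4, Sox2 and Myc under doxycycline control. The groups were Tet2-WT (n = 3), infected with a pMXs retrovirus carrying wild-type Tet2, Tet2-E (n = 4), infected with the stalling mutant of Tet2, pMXs (n = 3), infected with the empty retrovirus, and Untreated MEFs (n = 3). The first 3 groups were collected at day 5 of reprogramming, on feeders treated with mitomycin. Their medium held LIF, doxycycline at 2 µg/mL, the ERK pathway inhibitor PD0325901 at 1 µM and the GSK3 inhibitor CHIR99021 at 3 µM, and all cells were kept in 5% oxygen. The series text places Untreated cells with the empty vector while their own label says MEF-control, so whether they carry it was not settled. No sort or feeder removal is named, so feeder RNA may be in the day 5 libraries. Whether the replicates of a group were grown separately is not stated.

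Replication-dependent histone genes are transcribed when DNA is copied, and their mRNAs usually end in a conserved stem-loop instead of a poly(A) tail. The stem-loop binding protein Slbp and the U7 particle direct that 3' end, and the mRNAs are degraded when DNA synthesis stops. Some cluster genes also make a polyadenylated form, in human cells including HIST1H1C, HIST1H2BC, HIST1H2AC and HIST2H2BE. The libraries came from a stranded mRNA kit that selects polyadenylated RNA, so the counts describe the histone RNA that such selection retained, and not the whole histone mRNA pool.

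The sequence that sets these genes apart lies just after the stop codon. The pattern GGNNCTTTTCAGNNCC was searched on the sense strand in the first 100 bases after the stop, in GENCODE vM21 transcripts. It was found in 34 of 52 histone cluster genes with at least 16 annotated bases there (65.4%), against 1 of 20832 other coding genes (0.0048%), H2bfm. No other letters were searched, so a gene without a match may still hold a stem-loop of another form. The letters of the pattern fell into a main form in 25 genes of H1, H2A, H2B and H3, and 2 forms in 7 and 2 genes of H4. Hist1h4i and Hist1h2bc had no match, and Hist1h3i has no annotated bases after the stop. The lines below show examples of each form, among them Hist1h4j, which passed in no comparison. The 16 bases of the stem-loop are in capitals with 5 bases on each side.
Hist1h1c: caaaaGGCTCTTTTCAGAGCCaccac
Hist1h2ab: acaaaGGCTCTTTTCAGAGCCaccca
Hist3h2a: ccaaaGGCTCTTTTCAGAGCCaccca
Hist1h2bj: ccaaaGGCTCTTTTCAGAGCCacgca
Hist1h3b: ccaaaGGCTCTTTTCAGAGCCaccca
Hist1h4c: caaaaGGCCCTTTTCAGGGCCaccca
Hist1h4h: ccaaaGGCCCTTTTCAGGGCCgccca
Hist1h4j: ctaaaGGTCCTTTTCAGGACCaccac
The annotated transcripts also hold a poly(A) signal, AATAAA or ATTAAA on the sense strand in the last 50 bases, in 17 of 50 histone cluster genes with at least 50 annotated bases after the stop (34.0%), against 75.6% of all coding genes with as many. Those 17 genes held 49.9% of all histone cluster counts. The other 35 genes held 43.2%. Among them are Hist1h2bc, with 21.3% of all histone cluster counts, and Hist1h2ac, both listed above as polyadenylated in human cells. Lack of an annotated signal thus does not show that a gene lacks a polyadenylated form. The 35 genes also include Hist1h1a and Hist2h3b, which have 48 and 37 annotated bases there and no signal in them. The remainder belonged to 15 genes annotated only to about the stop codon and to 2 genes that GENCODE calls pseudogenes, Hist1h2al and Hist3h2bb-ps.

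Tet2 reads, which cannot be parted into vector and locus, stood at 1226 to 1274 CPM (counts-per-million of the library total) in Tet2-WT, 592 to 1443 CPM in Tet2-E, 40.4 to 60.3 CPM in pMXs and 35.0 to 44.0 CPM in Untreated libraries. The 13 libraries held 14052646 to 26265382 counts each.

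Counts were spread very unevenly over the histone cluster genes, which had 92421 counts in all. Hist1h1c, a somatic linker histone, took 31.9% of them and Hist1h2bc, an H2B gene, took 21.3%. The next shares were 6.02% for Hist3h2a, 4.54% for Hist1h4i, 4.40% for Hist1h2ab, 3.44% for Hist1h3b, 2.86% for Hist1h2al and 2.51% for Hist1h2bg. Shares of counts are not corrected for transcript length and do not rank the genes by molecules.

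Of the 69 genes, 63 had a count in at least 1 library and 47 passed the filter on low counts and were tested. Hist2h3c2, Hist2h2aa1, Hist1h2bq, Hist1h2br, Hist1h2ap and Hist1h2aa had 0 counts in all 13 libraries, which at 3 counts allows up to 0.114 to 0.213 CPM depending on the library, for counting error only. Near-identical copies limit this reading. Of the 40-base words of the annotated transcript, only 36.1% were unique to the gene in Hist2h3c2, 10.4% in Hist2h2aa1, 6.8% in Hist1h2ap, 0.2% in Hist1h2br and none in Hist1h2bq, whereas 93.2% were unique in Hist1h2aa. The word length is that of 1 sequenced end, and how reads with several matches were counted is not given in the sources used here. In all, 18 genes were under 20% unique, 7 of them tested, and they held 3.95% of the counts, so values of these genes are uncertain.

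The testis-type genes were close to the floor. Hist1h1t, the testis linker histone, ran from 0 to 0.148 CPM in Tet2-WT, Tet2-E, pMXs and Untreated libraries together, and Hist1h2ba, a testis H2B, from 0.0494 to 0.535 CPM. The single Hist4 gene, Hist4h4, reached at most 0.356 CPM. None of these genes passed the filter.

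Summed over the 69 genes, the level was 395, 381 and 366 CPM in Tet2-WT replicates 1, 2 and 250. It was 389, 408, 330 and 356 CPM in Tet2-E replicates 1, 2, 100 and 250. It was 342, 324 and 346 CPM in pMXs replicates 2, 100 and 250, and 252, 241 and 250 CPM in Untreated replicates 1, 2 and 100. Every day 5 library lay above every Untreated library, and Tet2-E overlapped both other day 5 groups. Group means were 381 ± 14.5 CPM with Tet2-WT, 371 ± 34.6 CPM with Tet2-E, 337 ± 12.3 CPM with pMXs and 248 ± 6.33 CPM in Untreated cells (SD). Without Hist1h1c and Hist1h2bc they were 188 ± 16.4, 183 ± 28.4, 153 ± 15.5 and 100 ± 4.52 CPM in the same order of groups. The sums are descriptions without a test, and in bulk RNA fewer cells making a transcript and less of it per cell cannot be told apart.

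The classes differed in how their sums stood between groups. H1 summed to 125 ± 5.92 CPM with Tet2-WT, 122 ± 10.0 CPM with Tet2-E, 126 ± 12.2 CPM with pMXs and 83.4 ± 0.384 CPM in Untreated cells. H2A summed to 70.3, 71.2, 63.3 and 44.9 CPM in these groups, and H2B to 116, 110, 96.1 and 92.9 CPM. H3 summed to 28.3 ± 7.81 CPM with Tet2-WT, 31.0 ± 9.33 CPM with Tet2-E, 22.3 ± 5.68 CPM with pMXs and 9.27 ± 1.65 CPM in Untreated cells. H4 summed to 41.1 ± 2.93, 37.2 ± 4.21, 30.2 ± 1.67 and 17.1 ± 0.414 CPM. H3 thus had both the widest spread within the day 5 groups relative to its mean and the largest ratio of pMXs to Untreated means among the 5 classes.

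**Figure D1:**
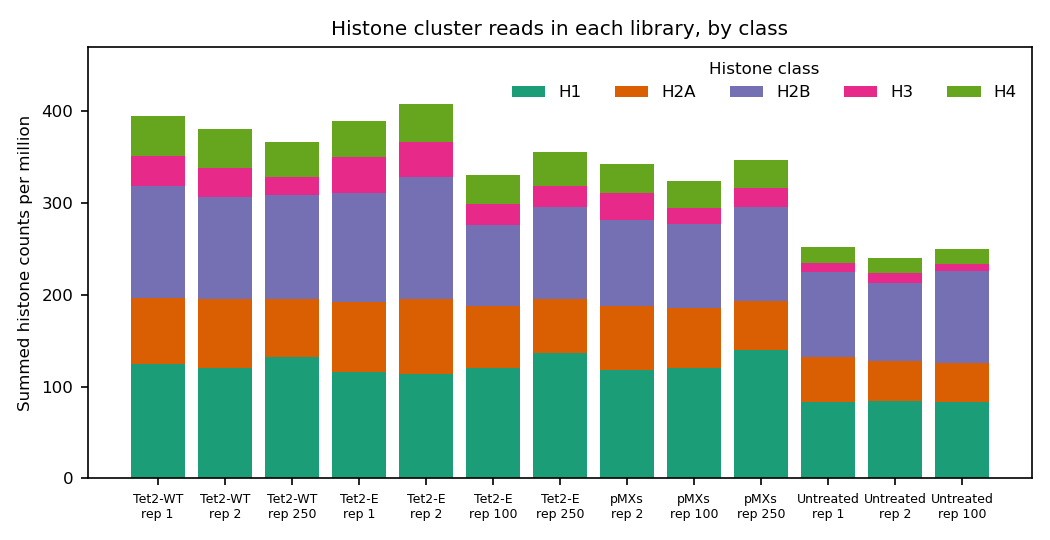
Summed CPM of the histone cluster genes in each of 13 libraries, 1 bar a library, stacked by histone class. Untreated bars end at 241 to 252 CPM and day 5 bars at 324 to 408 CPM; H1 and H2B make up most of each bar.

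Libraries with replicate numbers 1 and 2 stood apart from those numbered 100 and 250. The summed H3 level was 32.0 and 33.5 CPM in Tet2-WT replicates 2 and 1, against 19.3 CPM in replicate 250. It was 38.4 to 39.7 CPM in Tet2-E replicates 1 and 2, against 22.3 to 23.5 CPM in replicates 100 and 250. It was 28.7 CPM in pMXs replicate 2, against 17.8 to 20.3 CPM in replicates 100 and 250, and 10.1 to 10.3 CPM in Untreated replicates 1 and 2, against 7.37 CPM in replicate 100. This split was present in all 4 groups for the H3 sum, so it was not confined to reprogramming cells. In all 4 groups the lower numbers exceeded the higher ones for 6 of 47 tested genes, Hist1h2ab, Hist1h2ac, Hist1h3a, Hist1h3b, Hist1h3c and Hist1h4n, and the reverse held for 0. Of all 14607 tested genes, 3.79% had the first pattern and 3.99% the reverse. The labels state that libraries were prepared in 2 sets and do not say what the numbers stand for, so the calls within each set of numbers are given with each of the 4 comparisons.

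The first comparison set day 5 cells with the empty vector against Untreated cells. Of 47 tested genes, 23 rose in pMXs, 3 fell and 21 did not pass (edgeR quasi-likelihood test, adjusted p under 0.05 over all genes tested). Over all tested genes 35.0% rose and 35.0% fell (70.1% in all), so 23 of 47 exceeds the general share and 3 of 47 lies below it. The 26 genes called in either direction are a smaller share of the 47 than 70.1%. The median log2 fold change of the 47 genes was 0.55, against 0.00 for all tested genes, with a range of -1.54 to 3.04. In 27 genes every pMXs library exceeded every Untreated library, which 43.9% of all tested genes did, and in 2 genes all pMXs libraries were lower, which 29.3% of all tested genes were. Within replicate numbers 1 and 2 there were 16 genes higher and 0 lower, with a median of 0.72, and within 100 and 250 there were 14 higher and 5 lower, with a median of 0.47; these contrasts were chosen after seeing the data and rest on 1 library in 1 of the 2 groups each, which is assumed to vary like the libraries of the other groups.

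Fold changes were computed after TMM scaling, and CPM levels on library totals. In this comparison scaling by library totals alone moves the median of all tested genes up by 0.17 on the log2 scale, and then 25 histone cluster genes rose and 1 fell. Over all tested genes that scaling gives 6299 higher and 4129 lower, against 5118 and 5116 with TMM. Hist2h2ac, Hist1h2bm, Hist1h4n and Hist1h3d, none of which passed, changed sign with it.

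The 26 calls were not equally stable. Passing in every alternative that gave a value, single libraries left out and both sets of replicate numbers included, were 8 genes, namely Hist1h1a, Hist1h1c, Hist1h2ab, Hist3h2ba, Hist1h3a, Hist1h3c, Hist1h3i and Hist1h4i. Within the sets of replicate numbers, 10 of the 26 genes passed in both, 8 in 1 set and 8 in neither. The 8 that passed in neither were Hist1h2ac, Hist1h2ae, Hist1h2ah, Hist1h2an, Hist1h2bg, Hist1h2bh, Hist1h3e and Hist1h4k, with adjusted p of 0.0643 to 0.463 and the same direction as in the full comparison. The 5 lower genes within 100 and 250 were Hist3h2a, Hist1h2al, Hist2h2bb, Hist1h2bc (-0.29, adjusted p = 0.0307) and the H2B gene Hist1h2be (-0.69, adjusted p = 0.00376), and the last 2 did not pass in the full comparison.

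Among the linker histone genes 3 of 5 rose in pMXs, where 35.0% of all tested genes rose. Hist1h1c had 108, 114 and 131 CPM in pMXs replicates 2, 100 and 250, against 78.8, 79.2 and 78.5 CPM in Untreated replicates 1, 2 and 100. The 3 Untreated libraries were nearly alike and all below the pMXs ones, a log2 fold change of 0.41 ± 0.09 (SE, adjusted p = 0.000575). Hist1h1a, another somatic H1 subtype, had 1.82, 0.987 and 1.54 CPM in pMXs and 0.346, 0.364 and 0.355 CPM in Untreated cells. It rose by 1.80 ± 0.51 (adjusted p = 0.00532), and Hist1h1b, also a somatic subtype, rose by 0.92 ± 0.35 (adjusted p = 0.0302). The call of Hist1h1b rests on few libraries: without pMXs replicate 2 it was 0.46 (adjusted p = 0.241), it was also lost without Untreated replicate 1 or 2, and within numbers 100 and 250 it was 0.21 (adjusted p = 0.703). Hist1h1d and Hist1h1e, the remaining somatic subtypes tested, did not pass, at 0.26 ± 0.26 and 0.25 ± 0.31, though Hist1h1d was at 0.55 (adjusted p = 0.0493) without pMXs replicate 100.

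H2A was the class with the most calls: 8 of 11 rose and 2 fell, where 35.0% of all tested genes rose and 35.0% fell. Hist1h2ab had 20.9, 15.7 and 12.1 CPM in pMXs replicates 2, 100 and 250, against 5.46, 5.28 and 2.18 CPM in Untreated replicates 1, 2 and 100. The groups did not overlap, and the log2 fold change was 1.74 ± 0.38 (adjusted p = 0.00131). Also higher were Hist1h2an (1.93 ± 0.47), Hist1h2ah (1.91 ± 0.49), Hist1h2ai (1.64 ± 0.32), Hist1h2ak (1.17 ± 0.36), Hist1h2ae (0.80 ± 0.30), Hist1h2ac (0.58 ± 0.23) and Hist1h2ad (0.55 ± 0.18), all of them genes of canonical H2A. Of these, Hist1h2an, Hist1h2ah and Hist1h2ai are under 20% unique in their annotated sequence, so their counts depend on how reads matching several copies were treated.

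The smaller H2A changes were near the threshold. Hist1h2ac did not pass by DESeq2 (adjusted p = 0.0897), with no filter (0.0519) or with only the 2 groups fitted (0.0502), nor without Untreated replicate 1 or 100 or pMXs replicate 2 or 100 (0.0538 to 0.116). Hist1h2ae did not pass by DESeq2 (adjusted p = 0.0722), nor without Untreated replicate 2 or 100 or pMXs replicate 2 or 250 (0.0508 to 0.104). Hist1h2ad did not pass without Untreated replicate 100 (adjusted p = 0.0501) or pMXs replicate 100 (0.0891), and was at 0.32 (adjusted p = 0.295) within numbers 1 and 2. Hist1h2ah did not pass without pMXs replicate 100 (1.36, adjusted p = 0.0601). Within 1 set of numbers each, Hist1h2ai (adjusted p = 0.0513 within 100 and 250) and Hist1h2ak (0.0527 within 1 and 2) lay just past the threshold.

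The 2 H2A genes that fell did so by little. Hist3h2a, the H2A gene of the small Hist3 cluster, had 19.2, 19.5 and 18.9 CPM in pMXs replicates 2, 100 and 250, against 21.9, 19.7 and 22.1 CPM in Untreated replicates 1, 2 and 100. All pMXs values lay below all Untreated values, with a log2 fold change of -0.31 ± 0.09 (adjusted p = 0.00573). Hist1h2al, annotated as a processed pseudogene, had 9.23, 8.29 and 7.13 CPM in pMXs and 9.89, 8.96 and 9.15 CPM in Untreated cells, overlapping, at -0.35 ± 0.14 (adjusted p = 0.0336). With library totals alone neither passed, at -0.15 (adjusted p = 0.167) for Hist3h2a and -0.18 (adjusted p = 0.250) for Hist1h2al. Hist1h2al was also lost without Untreated replicate 1 or 2 or pMXs replicate 100 or 250 (adjusted p = 0.0513 to 0.131).

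H2B had few calls: 3 of 14 genes rose, 1 fell and 10 did not pass, where 70.1% of all tested genes passed. Hist1h2bc, the main H2B gene by counts, had 63.6, 65.1 and 72.5 CPM in pMXs replicates 2, 100 and 250, and 68.4, 63.0 and 74.7 CPM in Untreated replicates 1, 2 and 100. The groups overlapped fully and the change did not pass, at -0.20 ± 0.13 (adjusted p = 0.168). Hist1h2bg rose by 0.46 ± 0.13 and Hist1h2bh by 0.80 ± 0.25. Hist3h2ba, the H2B gene of the Hist3 cluster, had 0.845, 0.8292 and 0.349 CPM in pMXs replicates 2, 100 and 250, against 0.154, 0 and 0.0444 CPM in Untreated replicates 1, 2 and 100. It rose by 3.04 ± 0.66 (adjusted p = 0.00074), a size that rests on 4, 0 and 1 counts in the Untreated libraries. Hist2h2bb, an H2B gene of the Hist2 cluster, had 0.715, 0.158 and 0.210 CPM in pMXs and 1.00, 0.864 and 0.755 CPM in Untreated cells, and fell by 1.54 ± 0.45 (adjusted p = 0.00612). Without pMXs replicate 100 its change was -1.05 (adjusted p = 0.0562), and within numbers 1 and 2 it was -0.55 (adjusted p = 0.312).

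H3 genes rose in 5 of 9 cases and none fell, where 35.0% of all tested genes rose and 35.0% fell. Hist1h3b had 16.6, 9.12 and 9.50 CPM in pMXs replicates 2, 100 and 250, against 4.08, 4.55 and 1.91 CPM in Untreated replicates 1, 2 and 100. All pMXs libraries lay above all Untreated ones, and the log2 fold change was 1.56 ± 0.45 (adjusted p = 0.00855); without Untreated replicate 100 it was 1.27 (adjusted p = 0.0520). Hist1h3i had 1.95, 1.82 and 1.96 CPM in pMXs and 0.539, 0.637 and 0.533 CPM in Untreated cells. Both groups were tight, and it rose by 1.56 ± 0.22 (adjusted p = 1.22e-05), though only 9.4% of its annotated words are unique. Hist1h3a, with 1 to 7 counts in the Untreated libraries, rose by 2.38 ± 0.54, Hist1h3c by 1.36 ± 0.41 and Hist1h3e by 0.91 ± 0.37, all genes of canonical H3. Hist1h3e did not pass by DESeq2 (adjusted p = 0.0918), nor without Untreated replicate 2 or 100 or pMXs replicate 2 or 250, where adjusted p was 0.0720 to 0.220.

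H4 genes rose in 4 of 8 cases and none fell, where 35.0% of all tested genes rose and 35.0% fell. Hist1h4i had 15.5, 14.5 and 16.4 CPM in pMXs replicates 2, 100 and 250, against 7.12, 7.005 and 7.95 CPM in Untreated replicates 1, 2 and 100. The groups were far apart relative to their spread, with a log2 fold change of 0.90 ± 0.10 (adjusted p = 1.11e-06), the smallest adjusted p among the 47 genes. Hist1h4a (1.05 ± 0.36), Hist1h4k (1.03 ± 0.44) and Hist1h4d (0.92 ± 0.25) rose as well. Of these, Hist1h4k lost its call on leaving out any 1 of the 6 libraries (adjusted p = 0.0541 to 0.122) and by DESeq2 (0.113), and Hist1h4a lost it without Untreated replicate 100 (0.0541) or pMXs replicate 100 (0.0731). Hist1h4d was at 0.64 (adjusted p = 0.151) within numbers 100 and 250. Hist1h4c (0.40 ± 0.36) and Hist1h4n (-0.02 ± 0.21) did not pass. Hist1h4h, at 0.36 ± 0.18, did not pass either, but it did with library totals (0.52, adjusted p = 0.0135), with a block for replicate number (0.51, adjusted p = 0.00481) or for the sets of numbers (0.47, adjusted p = 0.00706), with only the 2 groups fitted (0.38, adjusted p = 0.0371) and within numbers 100 and 250 (0.47, adjusted p = 0.0427).

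**Figure D2:**
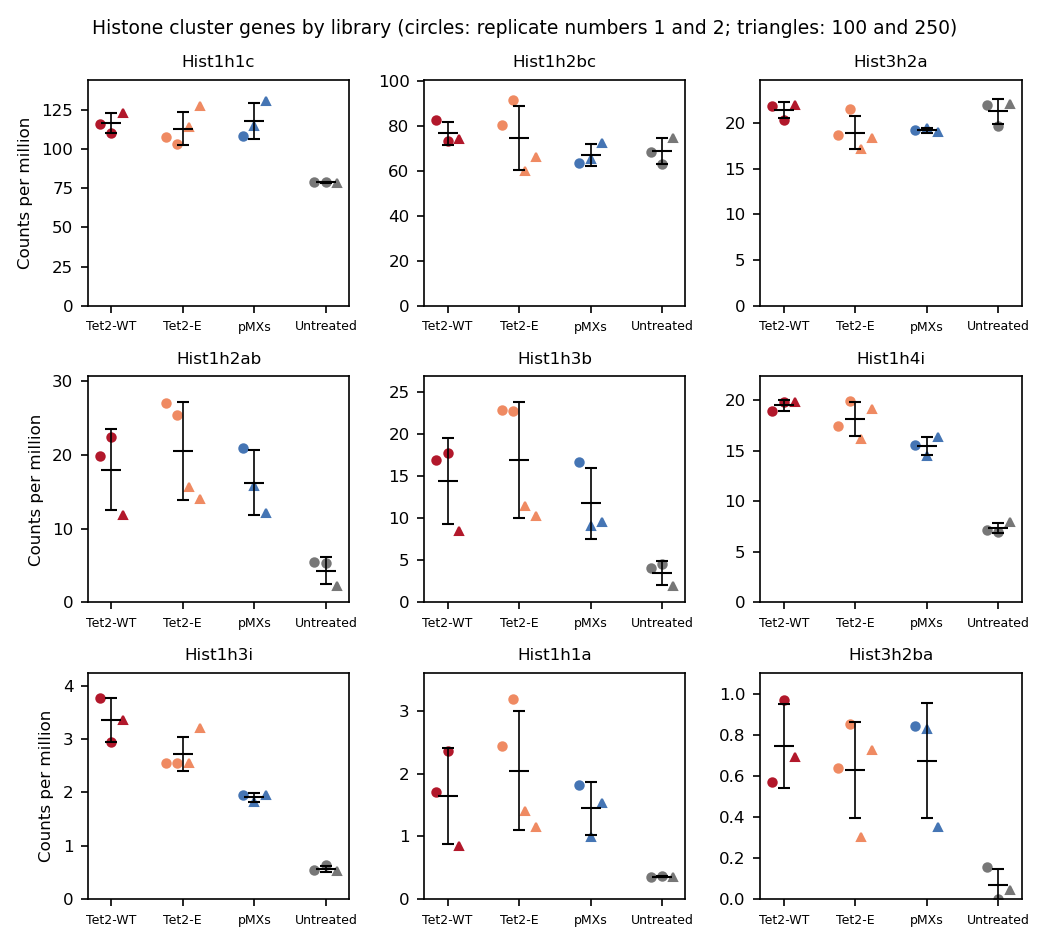
CPM of 9 histone cluster genes in each library, with circles for replicate numbers 1 and 2, triangles for 100 and 250, and black bars for the group mean and SD. Hist1h4i and Hist1h3i form tight groups, Hist1h2ab and Hist1h3b split by replicate number within each group, and Hist1h2bc and Hist3h2a differ little between groups.

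The 4 genes called polyadenylated in human cells were read separately because the libraries select poly(A). Hist1h1c and Hist1h2ac rose in pMXs over Untreated cells, the second with the near-threshold call described above, and Hist1h2bc and Hist2h2be, an H2B gene of the Hist2 cluster, did not pass. Their summed level was 190.2 to 205 CPM in Tet2-WT, 180 to 201 CPM in Tet2-E, 177 to 207 CPM in pMXs and 146 to 157 CPM in Untreated libraries. By annotation, genes with a poly(A) signal rose in 5 of 11 tested cases, with a median of 0.41. Genes without one, which include Hist1h2bc and Hist1h2ac, rose in 11 of 25, with a median of 0.46. Genes annotated only to about the stop rose in 7 of 10, with a median of 1.10. Over all tested genes 35.0% rose. In the group annotated only to about the stop, Hist1h2ai, Hist1h2an, Hist1h2ah and Hist1h3i rose but are only 9.6%, 13.8%, 9.0% and 9.4% unique. Hist1h3h and Hist1h2bn did not pass and are 5.9% and 12.3% unique. The share and median of that group thus rest largely on genes with uncertain counts.

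Along chromosome 13, genes that rose and genes that did not pass were interleaved. H2A and H2B genes are often arranged head to head with a shared upstream region, and in GENCODE vM21 there were 13 such pairs among the histone cluster genes, with both genes tested in 7. These pairs were noticed after their values were seen. In pMXs against Untreated the H2A gene had the higher log2 fold change in 6 of the 7 pairs, for example Hist1h2an at 1.93 beside Hist1h2bp at 0.20, and the exception was Hist2h2ac beside Hist2h2be. Summed over the 7 pairs, H2A counts per H2B count were 0.226, 0.258 and 0.155 in pMXs replicates 2, 100 and 250, against 0.133, 0.113 and 0.0810 in Untreated replicates 1, 2 and 100. Without the pair of Hist1h2ac and Hist1h2bc the ratios were 1.00, 1.22 and 0.675 in pMXs and 0.809, 0.661 and 0.464 in Untreated cells, and the groups overlapped. In Tet2-WT against pMXs the H2A gene was the higher one in 3 of 7 pairs and in Tet2-E against pMXs in 2 of 7, with pMXs libraries shared by both comparisons.

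**Figure D3:**
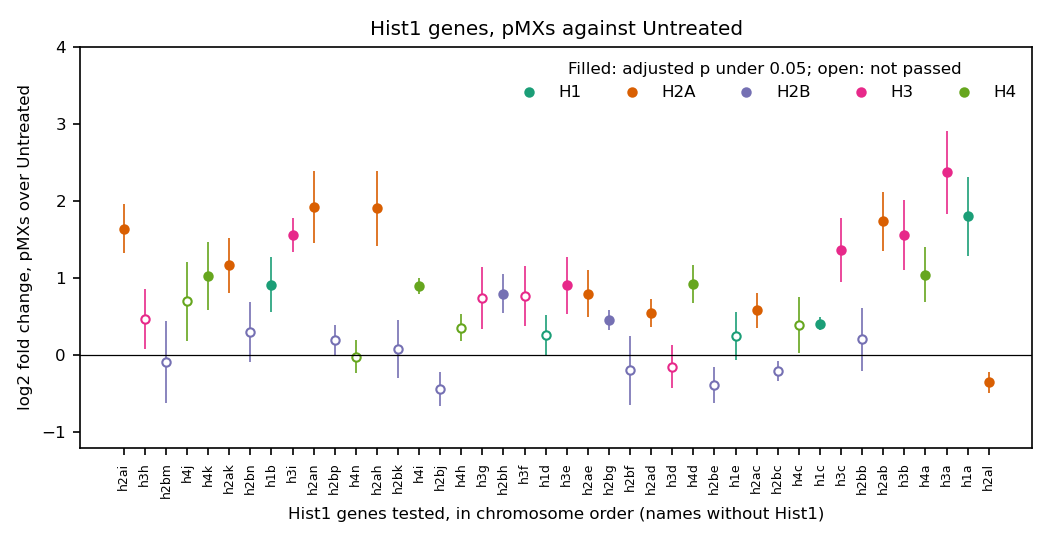
Log2 fold change (points) and SE (lines) in pMXs over Untreated cells of the tested Hist1 genes, in the order of their starts along the chromosome, coloured by class, filled where adjusted p was under 0.05. H2B points lie mostly near 0, between H2A and H3 points that reach 1.93 and 2.38.

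Stretches upstream of 4 genes that rose, of H1, H2A, H3 and H4 but not H2B, are shown as examples. They are the 250 bases before the annotated start, from RefSeq on GRCm38.p6, with matches to the searched motifs in capitals. The motifs were the CCAAT box, the TATA box with the letters TATAAA, the octamer ATTTGCAT and, for linker histones, the H1 box with the letters AAACACA, on either strand, none overlapping another in these stretches. RefSeq had a promoter for 61 of the 69 genes.
Hist1h1a, chr13:23763418-23763667, plus strand: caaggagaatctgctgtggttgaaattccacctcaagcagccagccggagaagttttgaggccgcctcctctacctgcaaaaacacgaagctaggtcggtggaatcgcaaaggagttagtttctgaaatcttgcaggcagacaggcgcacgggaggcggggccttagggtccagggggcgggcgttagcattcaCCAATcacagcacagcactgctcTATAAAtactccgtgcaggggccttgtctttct
Hist1h2ab, chr13:23750838-23751087, plus strand: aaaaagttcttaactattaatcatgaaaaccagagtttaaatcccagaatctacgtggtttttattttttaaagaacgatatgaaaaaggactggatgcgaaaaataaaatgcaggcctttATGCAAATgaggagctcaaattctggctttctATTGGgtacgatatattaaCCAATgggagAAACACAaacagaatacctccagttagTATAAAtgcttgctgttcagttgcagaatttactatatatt
Hist1h3b, chr13:23752095-23752344, plus strand: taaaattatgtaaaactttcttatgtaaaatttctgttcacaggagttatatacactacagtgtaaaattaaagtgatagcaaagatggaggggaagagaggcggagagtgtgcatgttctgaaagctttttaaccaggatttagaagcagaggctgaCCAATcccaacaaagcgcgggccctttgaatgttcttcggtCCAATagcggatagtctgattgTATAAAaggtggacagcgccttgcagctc
Hist1h4i, chr13:22041363-22041612, minus strand: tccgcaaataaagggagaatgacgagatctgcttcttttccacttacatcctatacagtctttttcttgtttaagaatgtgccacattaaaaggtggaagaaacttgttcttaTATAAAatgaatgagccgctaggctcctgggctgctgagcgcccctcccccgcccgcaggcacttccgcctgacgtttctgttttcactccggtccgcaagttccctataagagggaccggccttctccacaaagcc
In the RefSeq windows of 250 bases before to 50 after the start, the CCAAT box stood in 85.2% of the matched histone cluster genes, against 37.4% of all 32851 promoters. It was in every matched H1, H2A, H2B and H3 gene and in 3 of 12 H4 genes. TATAAA stood in 57.4% against 13.6% of all promoters. The octamer was found in 7 of 17 H2A and 6 of 16 H2B genes and in none of the H1, H3 and H4 genes, against 1.74% of all promoters. The H1 box stood in 5 of 6 H1, 2 of 17 H2A and 2 of 16 H2B genes, against 7.18% of all promoters. Hist1h1a lacks it, and the match marked above is in Hist1h2ab. All motif results are matches of letters only, and their part in the changes was not tested.

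Genes of DNA replication moved further than the histone cluster genes between pMXs and Untreated cells. Of 24 listed, 23 rose and none fell, with a median log2 fold change of 1.25. Rrm2, which makes deoxyribonucleotides, rose by 1.68 ± 0.09, and the licensing factor Cdt1 by 1.64 ± 0.17. Their summed level was 1836 ± 100.5 CPM in pMXs and 656 ± 111 CPM in Untreated cells. All 16 listed genes of mitosis rose as well, with a median of 1.33, among them Aurka, a spindle kinase, at 1.88 ± 0.13 and the cyclin gene Ccnb1 at 1.62 ± 0.12.

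The machinery around histone mRNA and protein moved in both directions. Of 14 genes of histone 3' end processing and decay, 10 rose and 2 fell. Slbp had 46.1 ± 1.49 CPM in pMXs and 28.2 ± 1.66 CPM in Untreated cells and rose by 0.54 ± 0.07 (adjusted p = 9.3e-06). Cstf2, a cleavage factor, rose by 1.24 ± 0.06 and Zfp473, a U7-associated zinc finger gene, by 1.16 ± 0.24, while Lsm10, a protein of the U7 particle, fell by 0.48 and Mif4gd, an Slbp partner, fell by 0.31. Of 12 genes of histone gene transcription, 9 rose and 2 fell: Pou2f1, the octamer-binding factor, rose by 1.51 ± 0.12 and the cyclin gene Ccne1 by 1.15 ± 0.07, and E2f1 fell by 0.39. Nfya, a subunit of the CCAAT-binding factor, had 45.6, 41.3 and 40.9 CPM in pMXs replicates 2, 100 and 250, against 44.6, 44.7 and 44.7 CPM in Untreated replicates 1, 2 and 100, which overlap. It was at -0.24 ± 0.07 after TMM scaling (adjusted p = 0.0104) and at -0.07 (adjusted p = 0.451) with library totals. Mif4gd likewise did not pass with library totals (-0.15, adjusted p = 0.241). Npat, the coactivator of histone genes, did not pass after TMM scaling (0.09 ± 0.10) and did with library totals (0.26, adjusted p = 0.0263). Of 16 chaperone and assembly genes, 15 rose, among them Npm1 by 1.86 ± 0.09 and Nasp, a chaperone of H1 and H3, by 1.79 ± 0.10.

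The listed replication-independent histone genes, whose mRNAs are usually but not always only polyadenylated, had 8 higher and 3 lower of 12 tested. H2afz, the H2A.Z gene, had 90.1 ± 4.58 CPM in pMXs and 18.8 ± 4.35 CPM in Untreated cells and rose by 2.09 ± 0.14 (adjusted p = 4.3e-09). Cenpa, the centromeric H3, rose by 1.59 ± 0.19. H2afv, a second H2A.Z gene, fell by 0.83, and H2afy3 fell by 0.79. The whole list summed to 1281 ± 58.9 CPM with Tet2-WT, 1299 ± 83.6 CPM with Tet2-E, 1349 ± 40.5 CPM with pMXs and 911 ± 43.5 CPM in Untreated cells.

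Cell type markers moved in the same comparison. Of 15 mesenchymal and fibroblast markers 14 fell, with a summed level of 27122 to 30584 CPM in pMXs and 57146 to 59963 CPM in Untreated libraries. Of 6 epithelial markers 5 rose, summing to 314 to 398 CPM in pMXs and 1.96 to 3.05 CPM in Untreated libraries. With library totals 13 mesenchymal markers fell, 1 rose and all 6 epithelial markers rose. Their part in the histone values was not tested.

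The second comparison asked what wild-type Tet2 changed at day 5. With Tet2-WT, 6 of 47 histone cluster genes rose over pMXs, none fell and 41 did not pass; over all tested genes 6.01% rose and 6.52% fell (12.5% in all). The median log2 fold change was 0.33, against 0.00 for all tested genes, and 41 of 47 values were positive. In 16 genes every Tet2-WT library exceeded every pMXs library, which 18.4% of all tested genes did, and none had the reverse pattern, against 15.9%. At an unadjusted p under 0.05 there were 12 of the 47 genes and 3684 of all 14607 tested genes, about the same share.

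Of the 6 genes that rose, 4 encode H4, 1 H3 and 1 H2B. Hist1h4c had 1.10, 1.17 and 0.938 CPM in Tet2-WT replicates 1, 2 and 250, against 0.520, 0.316 and 0.559 CPM in pMXs replicates 2, 100 and 250. It rose by 1.25 ± 0.30 (adjusted p = 0.0112) on few counts, and the groups did not overlap. Hist1h3i had 3.77, 2.95 and 3.36 CPM with Tet2-WT against 1.95, 1.82 and 1.96 CPM with pMXs, and rose by 0.81 ± 0.18 (adjusted p = 0.00675). Hist1h4n had 6.06, 5.44 and 4.59 CPM against 3.45, 2.80 and 3.07 CPM in the same order of libraries, and rose by 0.79 ± 0.20 (adjusted p = 0.0156). Hist1h3i and Hist1h4n are under 20% unique.

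The other 3 changed less or nearer the threshold. Hist1h2bj had 3.34, 2.53 and 2.96 CPM with Tet2-WT against 2.02, 1.62 and 1.68 CPM with pMXs, a rise of 0.73 ± 0.21 (adjusted p = 0.0358). Hist1h4h had 10.8, 9.56 and 7.21 CPM with Tet2-WT against 6.24, 6.16 and 6.64 CPM with pMXs, a rise of 0.53 ± 0.17 (adjusted p = 0.0499). Hist1h4i had 18.9, 19.8 and 19.8 CPM with Tet2-WT against 15.5, 14.5 and 16.4 CPM with pMXs, a rise of 0.33 ± 0.10 (adjusted p = 0.0328). In each of the 3 the groups did not overlap. Hist1h4i and Hist1h3i were also among the genes higher in pMXs than in Untreated cells.

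These calls rest on few libraries. The count was 2 without Tet2-WT replicate 1, 2 without Tet2-WT replicate 2, 1 without pMXs replicate 100 and 2 without pMXs replicate 250. Hist1h3i alone passed on leaving out any single library (adjusted p up to 0.0422), whereas Hist1h4i did not pass on leaving out any 1 of the 6 (0.0506 to 0.148). Hist1h4h did not pass with RLE scaling (adjusted p = 0.0510), with the block for replicate number (0.0834) or for the sets of numbers (0.0525), or without 5 of the 6 libraries, all but Tet2-WT replicate 250 (0.105 to 0.228). Hist1h4n was lost without Tet2-WT replicate 1 or 2 or pMXs replicate 100 or 250 (adjusted p = 0.0513 to 0.0876), and Hist1h2bj without Tet2-WT replicate 1 or 250 or pMXs replicate 100 or 250 (0.0670 to 0.149). Hist1h4c was lost by DESeq2 (adjusted p = 0.0516) and without Tet2-WT replicate 2 (0.0513) or pMXs replicate 100 (0.0929).

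Within replicate numbers pMXs replicate 2 and Tet2-WT replicate 250 each stand alone, so the spread there comes from the other groups, whose variation the lone library is assumed to share. None of the 6 genes passed within both sets. Hist1h4h was at 0.69 (adjusted p = 0.0234) within 1 and 2 and at 0.17 (adjusted p = 0.660) within 100 and 250. The other 5 passed in neither set, with changes of 0.31 to 1.11 within 1 and 2 and 0.36 to 1.18 within 100 and 250 (adjusted p = 0.0618 to 0.364). Hist1h2be, which did not pass in the full comparison, was at 0.70 (adjusted p = 0.0235) within 100 and 250 and also passed by DESeq2 (0.67, adjusted p = 0.0440) and with only the 2 groups fitted (0.69, adjusted p = 0.00942).

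**Figure D4:**
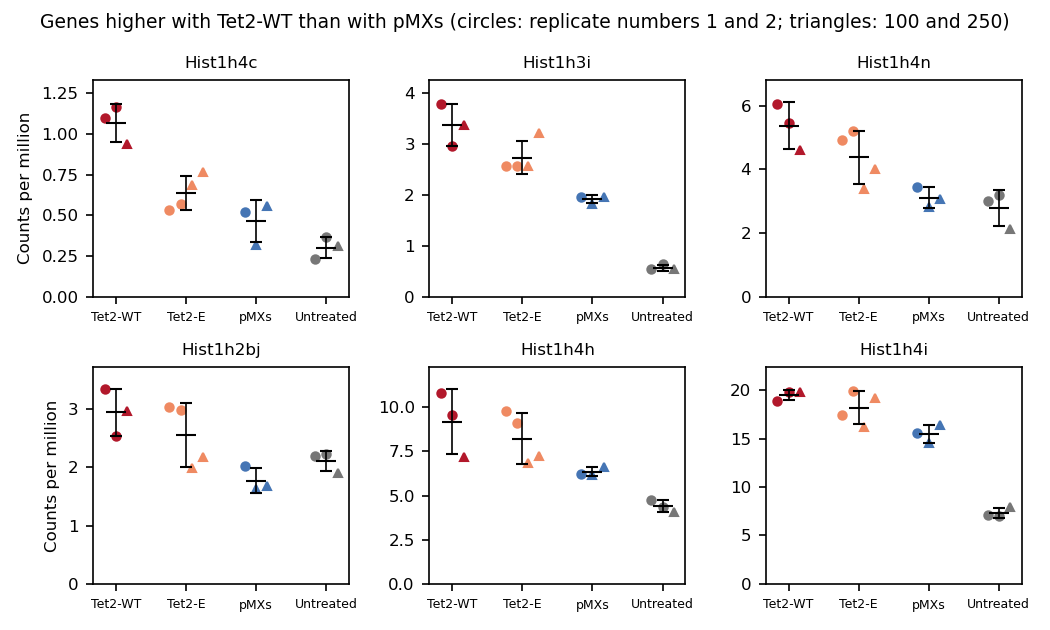
CPM by library of the 6 genes that rose with Tet2-WT over pMXs, with circles for replicate numbers 1 and 2, triangles for 100 and 250, and black bars for the group mean and SD. All Tet2-WT points lie above all pMXs points in each panel, and Tet2-E points overlap those of Tet2-WT, of pMXs or of both.

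The most counted genes did not pass in this comparison. Hist1h1c averaged 116 ± 6.31 CPM with Tet2-WT and 118 ± 11.5 CPM with pMXs (-0.02 ± 0.09, adjusted p = 0.902). Hist1h2bc was at 0.19 ± 0.13 (adjusted p = 0.411) and Hist1h2ab at 0.15 ± 0.34 (adjusted p = 0.844). None of the 24 DNA replication genes and none of the 16 mitosis genes passed, with medians of -0.09 and -0.13. Of the machinery lists, Cpsf2, a subunit of the histone cleavage complex, rose by 0.26 ± 0.07, E2f1, a cell cycle transcription factor, rose by 0.35 ± 0.09, Nasp fell by 0.37 and H2afy2, a macroH2A gene, fell by 0.47, with no other member called.

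Markers of other cells moved with Tet2-WT too. Of 6 tested macrophage markers 4 rose, Laptm5, Cd68, Itgam and Csf1r, with the list summing to 220 to 317 CPM in Tet2-WT and 83.5 to 97.0 CPM in pMXs libraries, mostly from Laptm5 at 259 ± 53.4 CPM against 82.0 ± 7.23 CPM. The remaining members did not rise with them. Cd53 was at 0, 0.0389 and 0 CPM in Tet2-WT replicates 1, 2 and 250 and at 0 CPM in all pMXs libraries, and Lyz2 at 0.0389 to 0.0494 CPM in Tet2-WT and 0.0650 to 0.197 CPM in pMXs libraries. The defining marker Adgre1 was at 0 CPM in all Tet2-WT and pMXs libraries and was not tested. Of 15 mesenchymal markers 8 fell and 2 rose, with sums of 20092 to 21218 CPM in Tet2-WT and 27122 to 30584 CPM in pMXs libraries. Their part in the histone changes was not tested.

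The third comparison set the stalling mutant against the same pMXs libraries. None of the 47 genes passed with Tet2-E in either direction by edgeR, while over all tested genes 0.0205% rose and 0.0274% fell (0.0479% in all), and DESeq2 called none of the 47 as well. At an unadjusted p under 0.05 there were 9 of the 47 genes, and 1363 of all 14607 tested genes. The smallest adjusted p among the 47 was 0.311, for Hist1h3i at 0.52 ± 0.17. Its levels were 2.56, 2.56, 2.55 and 3.21 CPM in Tet2-E replicates 1, 2, 100 and 250, against 1.95, 1.82 and 1.96 CPM in pMXs replicates 2, 100 and 250, with no overlap. In 4 genes all Tet2-E libraries exceeded all pMXs libraries, against 5.31% of all tested genes, and in none were they all lower, against 4.46%. The median change was 0.28, against 0.00 for all tested genes, with 39 of 47 values positive. These values come from the fit without a block. With the replicate number as a block 93 of all tested genes passed, against 7 without it, and 0 of the 47. Within replicate numbers 1 and 2, where pMXs has 1 library, and within 100 and 250 no gene passed, with medians of 0.28 and 0.17. For the 6 genes higher with Tet2-WT, the Tet2-E changes over pMXs were 0.55 ± 0.30 (Hist1h4c), 0.52 ± 0.17 (Hist1h3i), 0.48 ± 0.19 (Hist1h4n), 0.51 ± 0.21 (Hist1h2bj), 0.36 ± 0.16 (Hist1h4h) and 0.23 ± 0.09 (Hist1h4i), and both comparisons share the pMXs libraries.

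The direct comparison of Tet2-WT with Tet2-E also had no call among the 47 genes, by edgeR or DESeq2, where over all tested genes 2.43% were higher and 2.19% lower with Tet2-WT (4.62% in all). At an unadjusted p under 0.05 there was 1 of the 47 genes, Hist1h4c, and 2284 of all 14607 tested genes. Hist1h4c had 1.10, 1.17 and 0.938 CPM in Tet2-WT replicates 1, 2 and 250, against 0.533, 0.569, 0.685 and 0.764 CPM in Tet2-E replicates 1, 2, 100 and 250. The groups did not overlap, at 0.71 ± 0.25 (adjusted p = 0.144). In 2 genes all Tet2-WT libraries were above all Tet2-E libraries, against 8.02% of all tested genes, and in none were they all below, against 6.88%. The median over the 47 genes was 0.06. These values come from the fit without a block. The replicate number was also fitted as a block, although the labels do not state that it pairs libraries. With that block 965 of all tested genes passed, against 675 without it. With the replicate number as a block Hist1h3b was lower with Tet2-WT, at -0.38 (adjusted p = 0.0293), against -0.21 ± 0.37 (adjusted p = 0.900) without it. Hist1h3b had 16.9, 17.8 and 8.49 CPM in Tet2-WT replicates 1, 2 and 250, against 22.8, 22.8, 11.5 and 10.3 CPM in Tet2-E replicates 1, 2, 100 and 250, so the libraries differ more by number than by vector. Within replicate numbers 1 and 2 its change was -0.40 (adjusted p = 0.0329), and within 100 and 250, where Tet2-WT has 1 library, no gene passed.

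**Figure D5:**
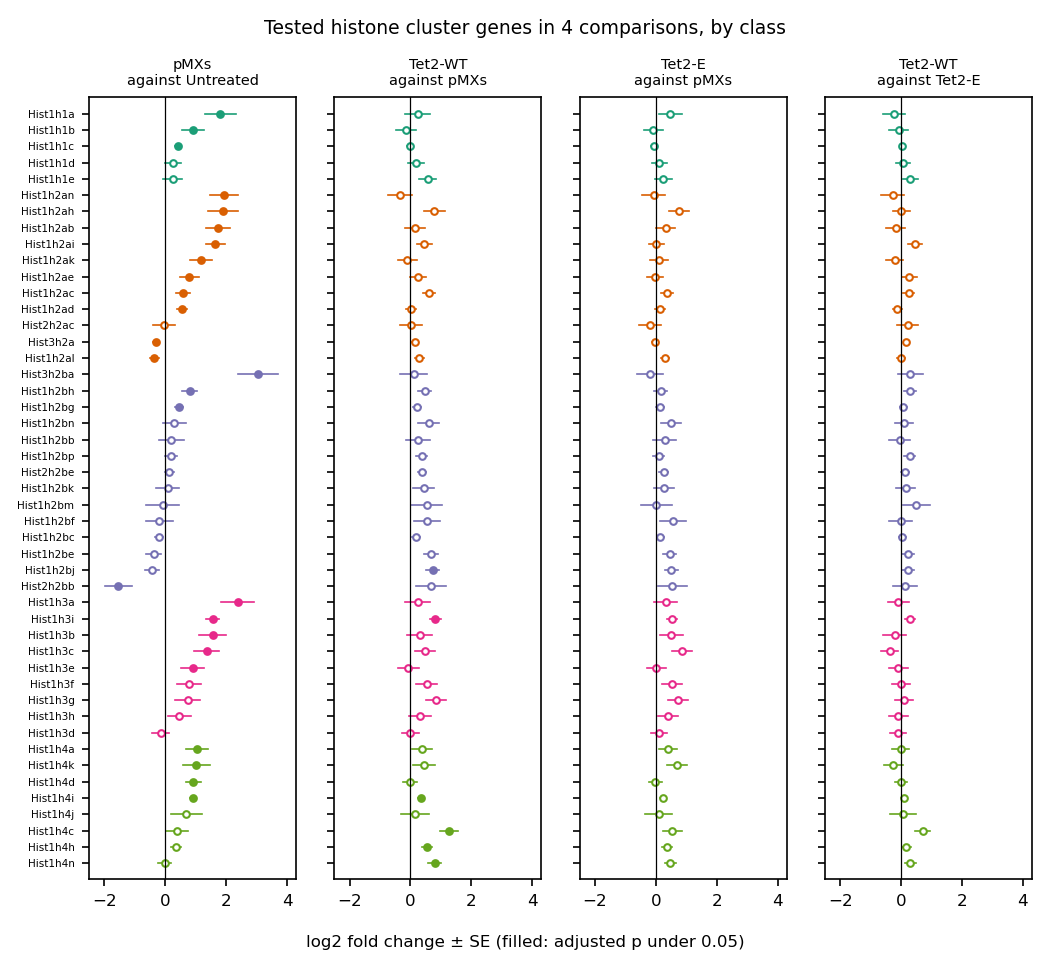
Log2 fold change (points) and SE (lines) of the 47 tested histone cluster genes in 4 comparisons, grouped by class and filled where adjusted p was under 0.05. Filled points number 26 in pMXs against Untreated, 6 in Tet2-WT against pMXs and 0 in both comparisons with Tet2-E.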

How the data were processed

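RNA-seq of 13 libraries was analysed from 1 table of raw counts per gene, which the authors deposited. Per the submitters' processing notes, the tools named are STAR 2.6.1a, SAMtools 1.7, bedtools 2.27.1, featureCounts 1.6.2, R 3.6.2 and DESeq2 1.26.0, with build mm9; the strand setting of the counting and the treatment of reads with several matches are not given in the sources used here. Per the labels, the kit selects mRNA and each fragment was read for 40 bases from both ends.

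The test was edgeR 4.0.16 in R 4.3.3. Its filterByExpr (count minimum 10, total minimum 15) kept 14607 genes. After TMM scaling, a robust quasi-likelihood model with 1 coefficient for each group was fitted to all libraries and every comparison was a contrast of it. P-values were adjusted by Benjamini-Hochberg across the genes tested in that comparison, with a threshold of 0.05. The standard error is the absolute log2 change divided by the square root of F. Levels are CPM of the library total. The biological coefficient of variation was 0.102. Since separate cultures are not stated, the p-values refer to variation among these libraries, which may be technical. The procedure was also run on simulated counts, with far fewer changed genes than in pMXs against Untreated and no split by replicate number. That run does not show how the procedure behaves on data with those features.

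The genes and lists were chosen with earlier results of these data known. Named were the called genes (up to 24 by smallest p), the 8 with the highest mean CPM, the highest of each class and locus, the testis-type genes, those polyadenylated in human, and up to 2 risen and 2 fallen genes per companion list. Other genes named in the text (the rest of the called genes, genes at 0 counts, members of head-to-head pairs, Hist1h1d, Hist1h1e, Hist1h2be, Hist2h3b, Npat, Slbp, the macrophage markers and genes that changed sign) were chosen after their values were seen. Residuals after group means were correlated between libraries with the same replicate number. The r was 0.15 to 0.26 over 3 pairs for Tet2-E and pMXs. It was 0.12 to 0.34 over 3 pairs for Tet2-WT and Tet2-E. For these 2 comparisons the fit with the replicate number as a block is given beside the main fit, which has no block. Libraries with another number of the same set (1 and 2, or 100 and 250) correlated about as much, at 0.12 to 0.36 and 0.08 to 0.29, and libraries of different sets at -0.33 to -0.05 and -0.42 to -0.15, so these values do not separate the number from the set. The other 2 comparisons have 2 pairs each, and in them the block is only an alternative setting. Their same-number r was 0.07 to 0.17 for pMXs and Untreated and 0.22 to 0.28 for Tet2-WT and pMXs.

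Sequence features came from GENCODE vM21 transcripts and RefSeq promoters, whose build is not that of the counting. Gene order and head-to-head pairs came from GENCODE vM21 positions. All of these were joined to the counts by gene symbol and not by coordinate. Alternatives were RLE, library totals, DESeq2 1.42.0, no filter, 1 CPM in 3 libraries, a replicate block, a block for the sets of numbers, a fit to 2 groups at a time, and omission of single libraries. Contrasts within replicate numbers were added after seeing the data.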

Additional observations from a re-analysis of the deposited data

Results flagged for a closer look

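In Tet2-E, the group of 4 libraries, 28 levels and sums were checked for a library far from the other 3, and chance flags about 1 in 20 such groups. Hist1h3i stood at 3.21 CPM in Tet2-E replicate 250, with the others at 2.55 to 2.56 CPM. Hist2h2be stood at 4.48 CPM in Tet2-E replicate 2, with the others at 3.50 to 3.59 CPM. These 2 of 28 are close to the number that chance gives, and no value beyond the levels themselves was examined for them.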

How the results depend on the processing

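Of the genes checked singly, none changed direction past the threshold under any alternative run. These were the genes named by rule, the called genes, Hist1h1d, Hist1h1e and Hist1h2be, and other genes were not checked for it. In pMXs against Untreated, 26 genes passed, and 21 to 29 did under the other scalings, tools, filters and blocks, 19 to 22 without 1 library and 16 within replicate numbers 1 and 2. In Tet2-WT against pMXs, 6 passed, with 4 to 7 under the other settings, 1 to 4 without 1 library, and 1 within each set of replicate numbers; the cause was not tested beyond the smaller number of libraries. In Tet2-E against pMXs 0 passed under every alternative. In Tet2-WT against Tet2-E 0 passed, and 1 did with the replicate block, with the block for sets of numbers, and within replicate numbers 1 and 2, each time Hist1h3b, with adjusted p of 0.0293, 0.0134 and 0.0329. The replicate block gave 25 calls in pMXs against Untreated (22 of them shared) and 4 in Tet2-WT against pMXs. Without Hist1h1c the summed level was 264 CPM with Tet2-WT, 258 CPM with Tet2-E, 220 CPM with pMXs and 169 CPM in Untreated cells. Scaled by TMM or RLE, the Untreated sum was 270 or 272 CPM. Depth limits the low genes: Hist3h2ba, Hist1h3a and Hist1h4c rest on few counts.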
